A study of Rattus norvegicus with 4 samples.

Results

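Synaptotagmins are membrane proteins of secretory vesicles and other organelles that carry a pair of C2 domains in the cytosol. In members such as synaptotagmin-1 these domains bind calcium ions and phospholipids and act on the SNARE proteins, which is how a rise of calcium is coupled to vesicle fusion in neurons and chromaffin cells. Other members have lost calcium-binding residues in one or both C2 domains, and some are found in many tissues outside the nervous system. PC12 cells, derived from a rat pheochromocytoma, are neuron-like cells that release catecholamines from dense-core vesicles, and they have long served to study these proteins.

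The genes described here are the 10 synaptotagmin genes *Syt1*, *Syt2*, *Syt4*, *Syt5*, *Syt6*, *Syt7*, *Syt9*, *Syt11*, *Syt12* and *Syt13*, found by gene name among the 25810 genes of the count files. The libraries came from clones of PC12, 2 from wtPC12, described by the labels as wild type with low REST, and 2 from hrPC12, a clone with high REST formerly named PC12-27. REST is a repressor of neuronal genes. The hrPC12 clone arose spontaneously, and the labels name no transgene or treatment for either clone. Since 1 clone stands for each level of REST, the effect of REST cannot be told apart from other traits of the clones, and nothing says that the libraries came from separate cultures, so p values measure only the spread between these libraries. The reads counted on genes ranged from 20975027 to 27246502 per library.

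Values are raw read counts scaled between libraries (normalized counts), given as mean ± SD of the 2 libraries of a clone, and log2 FC is hrPC12 over wtPC12. Testing was limited to genes averaging 5 or more normalized counts over the libraries and read in each clone, 8 of the 10 members and 13726 genes in all. The terms lower and higher in hrPC12 are used of genes that passed both thresholds of the study, a p under 0.01 in edgeR's quasi-likelihood (QL) test after Benjamini-Hochberg (BH) adjustment over all tested genes, and a log2 FC below −2 or above 2. SE is the standard error of the log2 FC. At 2 libraries per clone, 0.333 is the smallest two-sided p that an exact permutation test on 1 gene allows. *Rest* itself had 43.0 and 132 normalized counts in the wtPC12 libraries and 964 and 915 in the hrPC12 libraries, a log2 FC of 3.42 (SE 0.57) that just missed the p threshold (BH-adjusted p = 0.0115, edgeR QL test). It passed with RLE factors (BH-adjusted p = 0.00207, edgeR QL test) and in DESeq2, and leaving out either wtPC12 library moved its log2 FC, to 2.80 (replicate 1 left out) or 4.44 (replicate 2 left out).

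Of the 8 tested members, 5 were lower in hrPC12 and 0 were higher. The corresponding shares of the 13726 genes were 5.46% lower and 4.84% higher. No tested member had a positive log2 FC, so 0 were higher also at an unadjusted p under 0.05, in edgeR and in DESeq2. The lower genes were *Syt4*, *Syt7*, *Syt1*, *Syt13* and *Syt5*, with log2 FC from −10.53 to −4.36, and the members that were not called were *Syt12*, *Syt11* and *Syt9*. The median log2 FC was −5.30 over the 8 members and 0.06 over all tested genes. In 7 of the 8 members both hrPC12 libraries lay below both wtPC12 libraries, as they did in 35.6% of all tested genes. *Syt2*, with too low a mean over the libraries, and *Syt6*, with 0 reads in wtPC12, were not tested and are given by their reads. With wtPC12 replicate 2 left out, 0 of the 8 members passed, because no gene among 13590 then reached a BH-adjusted p under 0.01 in the edgeR QL test (smallest value 0.0134).

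The upstream sequences of *Syt4* and *Syt9* are shown because these are the members with the largest and the smallest difference between the clones. They were taken from RefSeq promoter windows of 300 bases, of which 250 lie before an annotated start. The windows matched 6 of the 10 members, *Syt1*, *Syt2*, *Syt4*, *Syt6*, *Syt9* and *Syt11*. Only bases before every annotated start of the gene are printed, on the minus strand for *Syt4* (GRCr8, chr18:23320864-23321113) and the plus strand for *Syt9* (GRCr8, chr1:170687555-170687665), and these positions belong to another build than the counts. Capitals mark a match to CAGCACC, the left part of the RE1 element that REST recognises, here read on the opposite strand.

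Syt4: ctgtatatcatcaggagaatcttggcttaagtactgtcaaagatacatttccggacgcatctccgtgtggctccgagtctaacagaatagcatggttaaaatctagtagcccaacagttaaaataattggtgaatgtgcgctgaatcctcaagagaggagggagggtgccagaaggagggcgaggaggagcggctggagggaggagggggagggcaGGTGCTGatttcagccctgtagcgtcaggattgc

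Syt9: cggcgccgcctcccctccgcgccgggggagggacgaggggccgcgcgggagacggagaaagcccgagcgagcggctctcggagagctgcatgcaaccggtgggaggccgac

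The match in *Syt4* lies from base −34 to base −28 relative to the annotated start. CAGCACC was found on either strand in 6.78% of the 33469 windows, and among the 6 matched members only in *Syt4*. The right part, GGACAG, was found in 21.7% of the windows, and in those of *Syt2* and *Syt6*. Both in order with NN between them were in 0.0299% of the windows and in none of the 6. These letters describe short windows at an annotated start and do not cover the introns or distant sequence. Of the bases upstream of that start, 0 in *Syt2*, *Syt6* and *Syt11* and 3 in *Syt1* lay before every annotated start. The windows of these members thus lie at a later start, within the annotated gene, and are not shown as upstream sequence. In *Syt9* 111 of the upstream bases lay before every annotated start, so its window also reaches into the annotated gene. The bases G and C made up 51.3% of the *Syt4* window and 79.7% of the *Syt9* window, beside a median of 51.7% over all windows.

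Among the members whose proteins bind calcium, *Syt1* codes for the sensor of fast, synchronous release. It had 819 and 1625 normalized counts in the wtPC12 libraries and 16.1 and 12.1 in the hrPC12 libraries. The clones did not overlap, although the wtPC12 libraries differed from each other by 1.98-fold. *Syt1* was 85.4-fold lower in hrPC12, with a log2 FC of −6.42 (SE 0.51, BH-adjusted p = 0.00128, edgeR QL test). The hrPC12 libraries kept 1.32% and 0.993% of the wtPC12 mean.

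*Syt7* codes for a sensor with high affinity for calcium, known from slow secretion, vesicle replenishment and lysosome exocytosis. Its libraries held 715 and 1424 normalized counts in wtPC12 and 6.77 and 8.09 in hrPC12. As with *Syt1*, the second wtPC12 library held more, by 1.99-fold, and both hrPC12 libraries were far below. The log2 FC was −7.15 (SE 0.53, BH-adjusted p = 0.00114, edgeR QL test), or 142-fold. What remained in hrPC12, 8 reads in each library, was 0.633% and 0.757% of the wtPC12 mean. Among the 10391 genes with a mean of at least 100 normalized counts in wtPC12, the median difference between the wtPC12 libraries was 1.27-fold and 7.96% of genes were at least 2-fold apart, so *Syt1* and *Syt7* differed by more than most genes. In the same direction *Rest* differed by 3.06-fold between these libraries, and the part of this in the differences of *Syt1* and *Syt7* was not tested.

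The names of *Syt5* and *Syt9* have been exchanged in the literature, and RefSeq lists SytIX as a synonym of *Syt5* and Sytv as a synonym of *Syt9*. The values follow the names in the count files. Both code for calcium sensors of vesicle exocytosis that occur on dense-core vesicles. *Syt5* had 3214 and 2414 normalized counts in wtPC12 and 128 and 147 in hrPC12. It fell by 4.36 on the log2 scale (SE 0.26, BH-adjusted p = 0.000690, edgeR QL test), which is 20.5-fold. Between 4.54% and 5.21% of the wtPC12 mean was left, a larger remainder than that of *Syt1* or *Syt7*.

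*Syt9* had 703 and 1056 normalized counts in the wtPC12 libraries and 721 and 713 in the hrPC12 libraries. It was the 1 tested member in which the clones overlapped (they did not in 73.5% of all tested genes), with both hrPC12 libraries between the wtPC12 libraries. The means were 879 ± 250 (SD, n = 2) and 717 ± 5.60 (SD, n = 2), and the log2 FC was −0.29 (SE 0.27, BH-adjusted p = 0.429, edgeR QL test). Its 95% confidence interval, from −0.98 to 0.39, does not reach the threshold of 2 in either direction, so a change of the size found for *Syt5* lies outside it. Without wtPC12 replicate 2 the log2 FC turned to 0.03.

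*Syt2*, the sensor of fast release in the hindbrain and at the neuromuscular junction, and *Syt6*, a member of the disulfide-linked subgroup, were near the limit of detection in every library. *Syt2* had 2 and 3 reads in wtPC12 and 7 and 5 in hrPC12. The ratio of hrPC12 to wtPC12 was 2.02, with an exact 95% interval from counting error of 0.664 to 7.34, so no difference was detectable at this depth. *Syt6* had 0 reads in both wtPC12 libraries and 9 and 5 in hrPC12. Taking 3 reads per wtPC12 library as the most that a count of 0 allows, it was at least 1.93-fold higher in hrPC12. Without molecular identifiers in the reads, such intervals and limits take in no error other than that of counting.

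**Figure D1:**
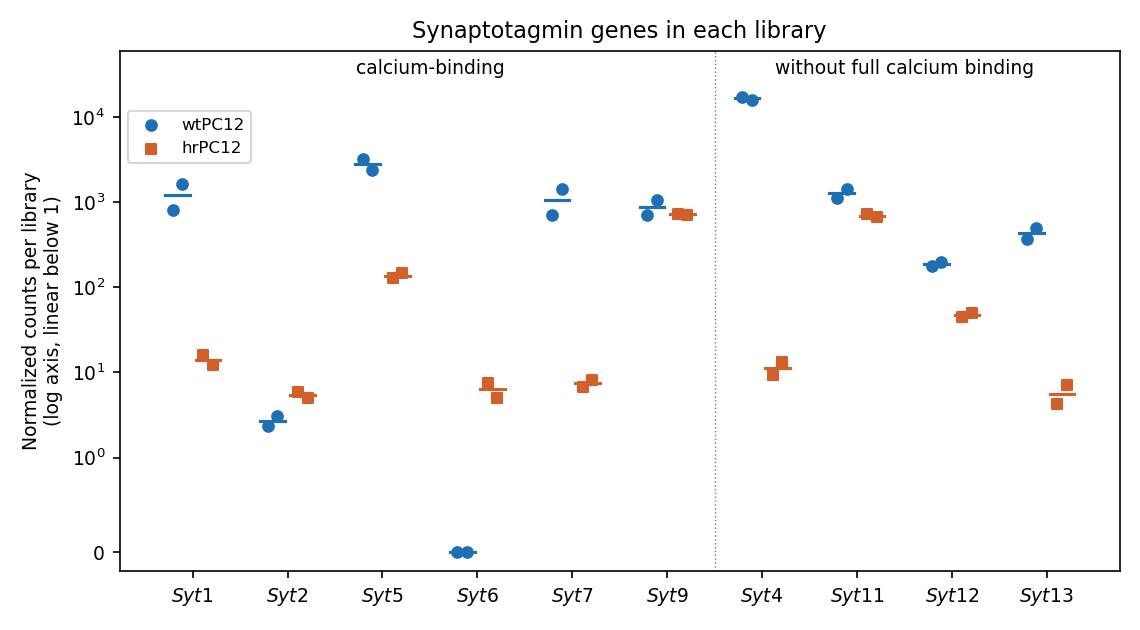
Normalized counts of the 10 synaptotagmin genes (y axis, logarithmic and linear below 1) in each wtPC12 library (circles) and hrPC12 library (squares), with a line at each clone's mean. *Syt4* falls from 15807 or more to the range of *Syt1*, *Syt7* and *Syt13* in hrPC12, where none of the 4 exceeds 16.1, whereas *Syt9* overlaps between the clones.

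Among the members without full calcium binding, *Syt4* codes for a vesicle protein with a substituted residue in its first C2 domain, studied in PC12 cells and neuroendocrine secretion. It had 14940 and 15345 reads in the wtPC12 libraries and 11 and 13 in the hrPC12 libraries. Of the members it had the most reads in wtPC12 and the lowest log2 FC, −10.53 (95% confidence interval −11.28 to −9.77), which ranks 5 from the lowest among the 13726 tested genes. Both hrPC12 libraries kept under 1% of the wtPC12 mean, as *Syt7* also did and as 0.991% of all tested genes did.

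*Syt11* shares that substitution and is the closest relative of *Syt4*, known from many tissues and from roles in vesicle traffic and lysosomes. The wtPC12 libraries held 1133 and 1419 normalized counts and the hrPC12 libraries 722 and 662. The clones did not overlap, yet the difference was small. Its log2 FC was −0.88 (SE 0.22, BH-adjusted p = 0.0361, edgeR QL test), with a 95% confidence interval from −1.45 to −0.32. That is 1.84-fold, which passes neither threshold and lies far from the interval of *Syt4*.

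*Syt13*, whose protein lacks the calcium-binding residues and is known from endocrine cells, had 370 and 495 normalized counts in wtPC12 and 4.23 and 7.08 in hrPC12. The hrPC12 values rest on 5 and 7 reads. It was 75.9-fold lower, with a log2 FC of −6.25 (SE 0.44, BH-adjusted p = 0.00100, edgeR QL test).

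*Syt12*, another member that does not bind calcium, had 176 and 198 normalized counts in wtPC12 and 44.9 and 49.6 in hrPC12. Libraries of a clone were close and the clones were well apart, by 3.95-fold. The log2 FC of −1.98 (SE 0.31) and the adjusted p of 0.0102 (BH, edgeR QL test) both lay just short of the thresholds. With edgeR's RLE factors the log2 FC was −2.02 and with DESeq2 −2.02, and *Syt12* then passed, so that 6 members were lower.

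**Figure D2:**
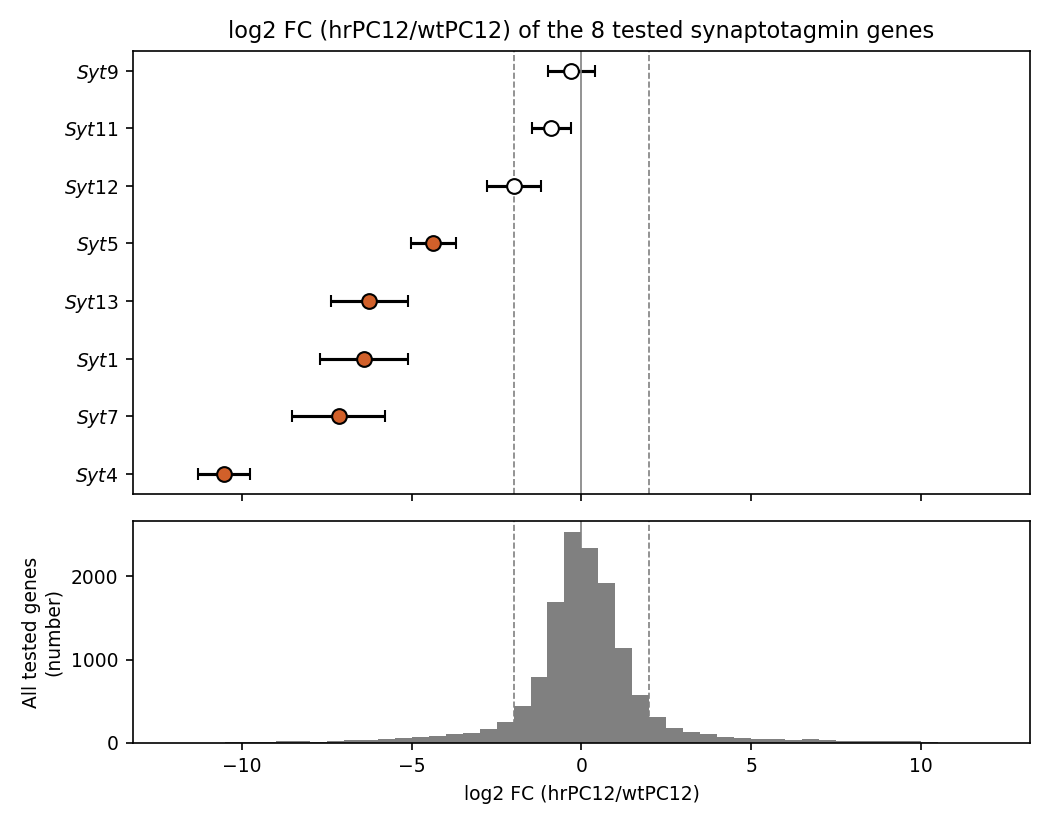
The upper panel gives the log2 FC of the 8 tested members (points) with the 95% confidence interval of edgeR's quasi-likelihood fit (bars), filled where the gene passed both thresholds, and the lower panel the number of all 13726 tested genes by log2 FC, with dashed lines at −2 and 2. The intervals of the 5 called members lie wholly below −2, whereas that of *Syt12* spans −2 and those of *Syt11* and *Syt9* lie above it.

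The calcium-binding members and the others did not separate by direction. Of the 4 tested calcium-binding members 3 were lower, and of the 4 tested members without full calcium binding 2 were lower. Of all tested genes 5.46% were lower. Each set held a member within 1 of 0 on the log2 FC scale (*Syt9* and *Syt11*) and members with a log2 FC below −6.

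To set an exocytosis sensor beside a widely expressed paralog without scaling between libraries, the reads of *Syt1* were divided by those of *Syt11* within each library. The log2 ratio was −0.47 and 0.20 in wtPC12 and −5.49 and −5.77 in hrPC12. The hrPC12 ratios were lower by 5.49 on average, beside an SD of 0.47 between the wtPC12 libraries, and the exact permutation test gave its smallest possible two-sided p, 0.333. Ratios to *Syt9* are given as values with no test, since *Syt9* was taken as denominator after it was seen to differ little between the clones, so that they restate the differences of *Syt1* and *Syt7*. The log2 ratio of *Syt1* to *Syt9* was 0.22 and 0.62 in wtPC12 and −5.49 and −5.88 in hrPC12, and that of *Syt7* to *Syt9* was 0.03 and 0.43 against −6.73 and −6.46.

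**Figure D3:**
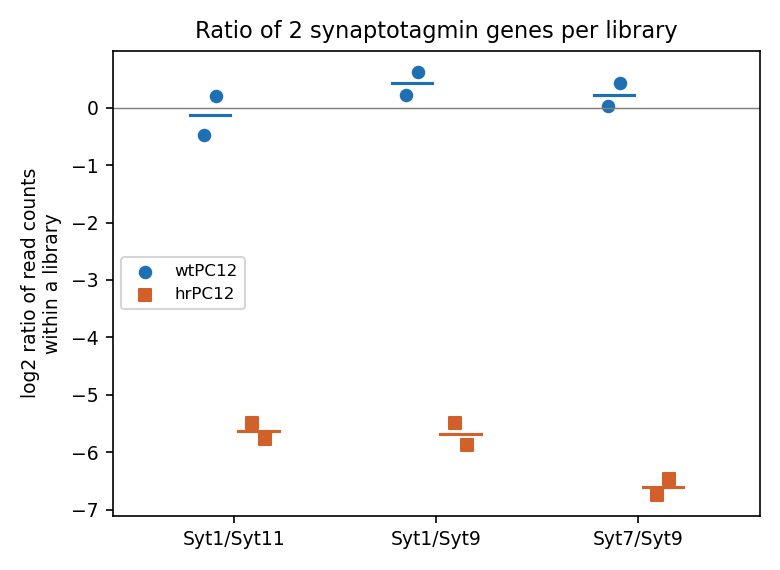
log2 ratio of the read counts of 2 synaptotagmin genes within a library (y axis) for 3 pairs of genes, in wtPC12 (circles) and hrPC12 (squares), with lines at the mean of a clone. In each pair the wtPC12 libraries lie near 0, between −0.47 and 0.62, and the hrPC12 libraries below −5.4.

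Reads of the 10 members together numbered 21071 and 23727 in the wtPC12 libraries and 1968 and 1603 in the hrPC12 libraries. *Syt4* supplied most of them in wtPC12, 70.9% (exact 95% binomial interval 70.3 to 71.5) and 64.7% (64.1 to 65.3), and 0.559% (0.279 to 0.998) and 0.811% (0.432 to 1.38) in hrPC12. *Syt9* and *Syt11* together supplied 7.49% and 10.1% in wtPC12, and 86.6% (85.1 to 88.1) and 84.8% (82.9 to 86.5) in hrPC12. The intervals take in counting error alone, and those of *Syt4* in the wtPC12 libraries did not overlap. Transcript lengths were not available for the members, so the shares are of reads and do not rank the genes by number of transcripts.

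Around the members, 23 related genes were listed, of which 15 were found by name and 12 tested. They code for the remaining synaptotagmins, synaptotagmin-like proteins, extended synaptotagmins and Doc2 proteins, and for rabphilin and *Rph3al*, whose product has no C2 domain. In hrPC12 4 of the 12 were lower (*Rph3a*, *Sytl4*, *Rph3al* and *Syt3*) and 1 was higher, with a median log2 FC of −1.17. The shares of all tested genes were 5.46% lower and 4.84% higher. Both hrPC12 libraries lay below both wtPC12 libraries in 7 of the 12 and above them in 4. Among the 13726 tested genes these counts were 4893 and 5201. Of the 4, *Sytl3* was not called, with 1 and 1 reads in wtPC12 and 25 and 11 in hrPC12. *Syt3*, a further calcium-binding synaptotagmin, named after its values were seen, had 1003 and 996 normalized counts in wtPC12 and 55.0 and 73.9 in hrPC12. It was 15.5-fold lower (log2 FC −3.96, standard error 0.29, BH-adjusted p = 0.00105, edgeR QL test). The lowest was *Rph3a*, which codes for rabphilin, a Rab3 effector, with 144 and 297 reads in wtPC12 and 6 and 0 in hrPC12 (log2 FC −6.39, standard error 0.95). *Sytl5*, which codes for a synaptotagmin-like Rab27 effector, went the other way, with 1 and 2 reads in wtPC12 and 61 and 36 in hrPC12. The ratio of its reads in hrPC12 to those in wtPC12, scaled for library size, was 27.3, with an exact 95% interval from counting error of 9.06 to 135. Neither *Rph3a* nor *Sytl5* passed without wtPC12 replicate 1 (BH-adjusted p = 0.0110 and 0.0218, edgeR QL test). Of the other synaptotagmins, *Syt8* and *Syt10* had 0 reads in every library, *Syt16* had 9 and 6 reads in wtPC12 and 0 in hrPC12, and *Syt15* was not called, with 37.2 and 54.6 normalized counts in wtPC12 and 146 and 135 in hrPC12.

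Of 15 genes whose proteins work with synaptotagmin-1 in fusion, 14 were tested. In hrPC12 5 of these were lower and 0 higher (5.46% and 4.84% of all tested genes), with a median log2 FC of −1.82. The lowest was *Snap25*, the SNARE partner of synaptotagmin-1, with 23276 and 18013 normalized counts in wtPC12 and 55.0 and 63.7 in hrPC12. The called gene with the smallest difference was *Sv2a*, which codes for a vesicle glycoprotein that binds synaptotagmin-1, with 4239 and 5046 against 856 and 908 (log2 FC −2.40, standard error 0.19). At a BH-adjusted p under 0.05 in the edgeR QL test, 13 of the 14 genes passed, all but *Sv2b* downwards (16.3% of all tested genes passed downwards). In 12 of the 14 both hrPC12 libraries lay below both wtPC12 libraries, as in 35.6% of all tested genes. The share of *Snap25* left in hrPC12, 0.267% and 0.309% of the wtPC12 mean, lay between those of *Syt4* and *Syt7*.

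**Figure D4:**
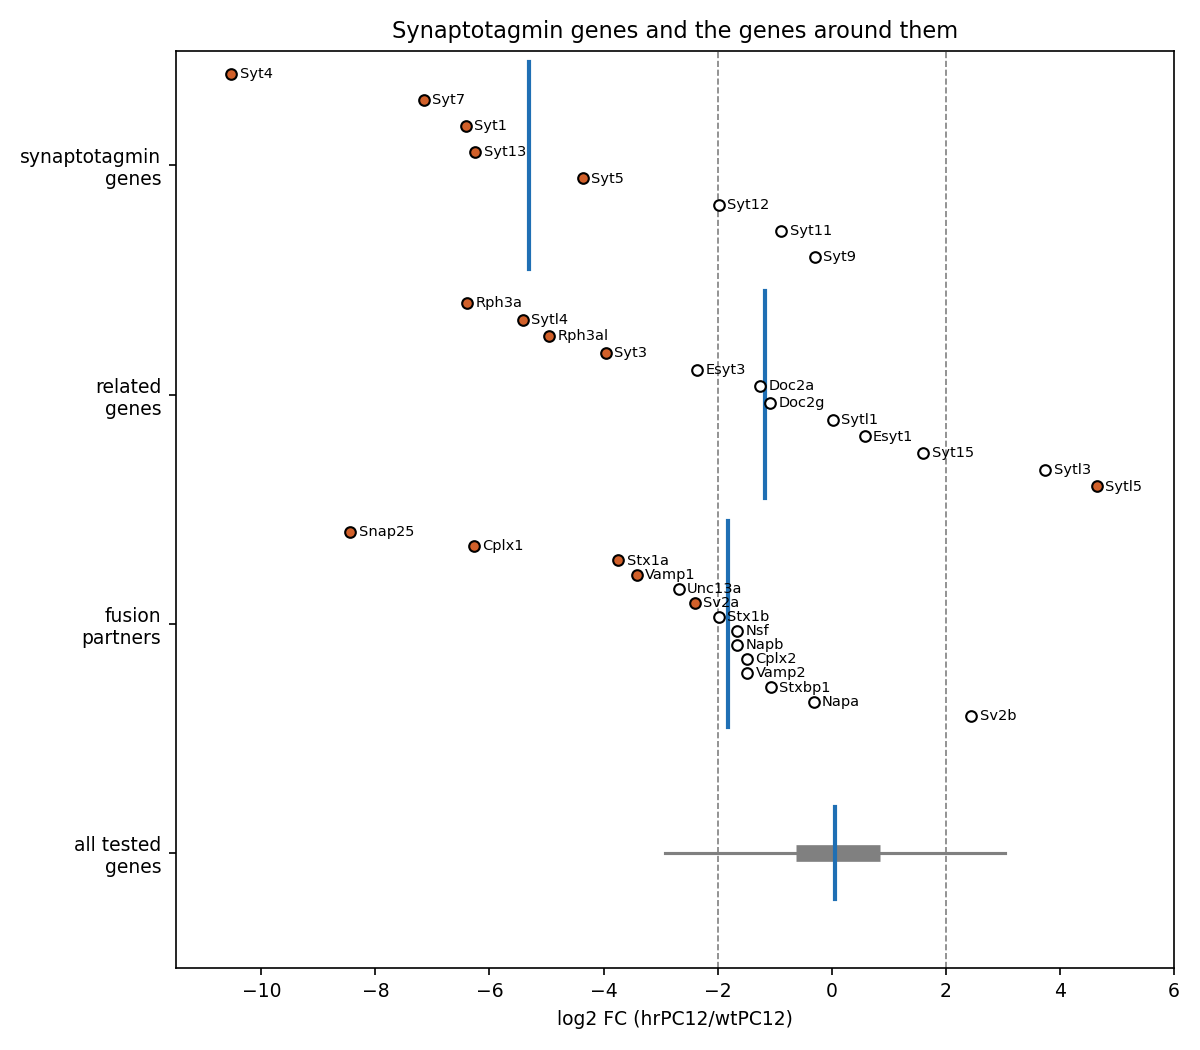
log2 FC (x axis) of each tested gene among the synaptotagmin genes, the related genes and the fusion partners, filled where the gene passed both thresholds, with a vertical line at the median of each set; for all tested genes the thick bar spans the 25 to 75 percentiles and the thin line the 5 to 95 percentiles. The synaptotagmin genes reach from −10.53 to −0.29, and *Sytl5* is the called gene on the right.

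Marker genes of cell types also differed between the clones, some downwards and some upwards in hrPC12. Among 9 chromaffin markers, 8 were found by name and 7 tested, and 5 were lower in hrPC12 (5.46% of all tested genes). The other tested markers were not called, *Ddc* with a log2 FC of 0.27 and *Slc18a2* with −0.10. Normalized counts summed over the markers were 953098 and 814790 in wtPC12 and 45925 and 50398 in hrPC12. Most of the wtPC12 sums came from *Chgb* (687936 and 626776), and *Ddc* was the largest term in hrPC12 (26281.2 and 27994.5). All 4 tested mesenchymal markers of 5 were higher (4.84% of all tested genes), with sums of 128 and 107 against 86385 and 90992. Most of the hrPC12 sums came from *Col3a1* (83801 and 88143). Of 4 white blood cell markers 0 of the 2 tested passed both thresholds (edgeR QL test), although *Cd68* had a log2 FC of 1.63 (BH-adjusted p = 0.0283, edgeR QL test). The sums of these markers were 33.7 and 33.0 in wtPC12 and 84.7 and 94.1 in hrPC12. The part of these shifts in the differences of the synaptotagmin genes was not tested. The genes whose values over the 4 libraries were closest to those of *Syt4*, by Euclidean distance between centred log2 values among 13725 genes, were LOC100360310, *Slc18a1*, the vesicular monoamine transporter 1, and *Chgb*, chromogranin B, at distances of 0.53, 0.67 and 0.74. Over 4 libraries of 2 clones this distance depends largely on the difference between the clones. The log2 FC of *Slc18a1* and *Chgb* were −9.90 and −10.22, so the list largely restates log2 FC similar to that of *Syt4*. In libraries of this kind fewer cells that express a gene and less RNA per cell cannot be told apart.

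Neighbours of each tested member were the nearest 3 genes on each side on the rat assembly GRCr8, 6 in all. They were taken only from tested genes placed there by name (65.2% of tested genes) and above a minimum mean count. Closer genes outside this set were passed over. The neighbours differed little between the hrPC12 libraries, with median log2 ratios of replicate 1 to replicate 2 from −0.10 to −0.02. Between the wtPC12 libraries these medians ranged from −0.36 for the neighbours of *Syt1* to 0.20 for those of *Syt11*. *Syt1* and *Syt7* themselves were at −0.99 each in wtPC12, and the neighbours of *Syt7* were at 0.19.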

How the data were processed

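RNA of the clones wtPC12 and hrPC12 was sequenced in 2 libraries each. Alignment by the authors was to the rat build RGSC3.4/rn4 with TopHat (TopHat2 2.0.4 and HTSeq 0.5.3 in the submitters' processing notes) and they deposited raw read counts per gene, with no normalization or filter. Reads on genes made up 37.9% to 41.3% of the reads accounted for, and totals of other reads were left out. The authors' table of their DESeq comparison was not used, and 0 columns of values per sample were left unused.

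Counts were scaled with edgeR's TMM factors (0.942, 1.01, 0.997 and 1.05), normalized counts being counts divided by effective library size relative to its mean. The clones were compared in R 4.3.3 with edgeR 4.0.16 (glmQLFit with the legacy option on, glmQLFTest) over all 13726 genes that passed the filter. Standard errors and 95% intervals come from the F statistic. A floor of 3 reads corresponds to 2.54 to 3.49 normalized counts. Alternatives were RLE factors, library totals, other filters, DESeq2 1.42.0, glmTreat, and each library left out; the ratios to *Syt9* and the adjusted p alone were added after the data were seen. Shares per kb of transcript, planned, were not computed for lack of lengths. The joint read share of *Syt9* and *Syt11* was not among the planned results. The code was first tested on simulated data with known changes, and all values given are from the 4 libraries. The members and lists were chosen with earlier results of these data known. Named genes are the members, *Rest*, and in each list the called genes with the lowest and highest log2 FC or against the main direction. The other related genes named, and *Sv2b*, were chosen after their values were seen.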

Additional observations from a re-analysis of the deposited data

How the results depend on the processing

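The count of 5 lower members was 5 or 6 under every alternative except that without wtPC12 replicate 2, where it was 0. With a library left out it thus ranged from 0 to 5, and the count of higher members was 0 throughout. In that refit *Syt4*, *Syt7*, *Syt1*, *Syt13* and *Syt5* had log2 FC of −10.60, −6.57, −5.84, −6.02 and −4.55 and adjusted p values from 0.0135 to 0.0175 (edgeR's quasi-likelihood test, Benjamini-Hochberg), and *Syt9* turned to 0.0299, the range of *Syt9* with a library left out being −0.59 to 0.0299. A clone left with 1 library was assumed to vary like the other. The median log2 FC lay between −5.40 and −5.08 with a library left out, and was −3.17 when every gene with a read was tested, since *Syt2* and *Syt6* then entered. *Syt6* had an adjusted p of 0.0445 there (edgeR's test, Benjamini-Hochberg). For *Syt1* against *Syt11* the difference in log2 ratio lay between −5.82 and −5.16 with a library left out. *Rph3a*, *Sytl5* and *Sv2a* were not called with glmTreat, a stricter test of whether the log2 FC lies beyond 2 in size. *Rph3a* and *Sytl5* were also not called without wtPC12 replicate 1, and the cause of that was not tested. Over all genes 749 lower and 665 higher became 353 and 321 with glmTreat, and 977 and 1127 when every gene with a read was tested. Depth limits the hrPC12 values of *Syt1*, *Syt4*, *Syt7* and *Syt13*, which rest on 5 to 19 reads. No paired analysis was possible because the library names in the labels have only the letter b in common between the clones, and the replicate numbers used here follow the order of the accessions and pair no libraries.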
